A study of Mus musculus with 2 samples.

Results

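The 4 mRNA probes of a miRNA code set, for Actb, Gapdh, Rpl19 and B2m, were followed in the RNA of extracellular vesicles (EVs), the membrane particles that cells shed into their medium. They were chosen by their class in the raw count files, Housekeeping, and made up 4 of the 443 probes, beside 420 probes for miRNAs. The EVs came from cortical astrocytes of mouse pups taken at postnatal day 1. The cultures carried the GFAP-EGFP transgene, a green fluorescent protein under the promoter of an astrocyte filament gene, and were 98% GFAP-positive at passages 3 to 10, per the labels' protocols. The growth protocol also names C57B6J mice, while the strain label of both samples is GFAP-EGFP. The IL-1β sample was medium taken 2 h after adding interleukin-1β, an inflammatory cytokine, at 200 ng per ml to washed cells, with the medium of several flasks per sample. The control sample had the label "none" for treatment, and per the series' design text held what the cells released in 24 h. Both samples carry the same protocol text, which describes the IL-1β step alone. EVs were pelleted at 100000 g after a clearing spin at 10000 g. With 1 sample in a group, no difference can be set against a spread between replicates, no test was possible, and treatment, collection time and lane cannot be told apart. Intervals are exact 95% intervals for counting error alone.

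Actb, Gapdh, Rpl19 and B2m are called housekeeping genes because most cell types transcribe them at high levels, and such mRNAs are used as internal standards for RNA from cells. EVs carry RNA in other proportions than the cells that shed them: small RNAs are a prominent part, and mRNAs occur whole or as fragments. In the nCounter assay each RNA molecule is held by a capture probe and counted once through a colour-coded reporter. A miRNA must first be ligated to a tag, whereas an mRNA is long enough to be bound directly, so the 2 kinds of count do not pass through the same chemistry.

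The code set was designed for rat, and the mRNA probes carry rat transcript accessions, while the labels give mouse as the organism. How well each probe binds the mouse transcript was not tested, so a count is compared here with the same probe's count in the other sample, and the order of probes within a sample is an order of counts and not of molecules. In the RefSeq annotation of the mouse assembly GRCm38.p6, Actb lies on chromosome 5 from 142903115 to 142907976, Gapdh on chromosome 6 from 125161852 to 125166467, Rpl19 on chromosome 11 from 98022003 to 98030493 and B2m on chromosome 2 from 122147687 to 122153082. Actb has a near-identical relative in Actg1, and Gapdh and Rpl19 have processed pseudogenes. Whether the probes also count those was not tested.

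All 4 mRNAs gave more counts in the IL-1β vesicles than in the control vesicles, while the summed miRNA counts were lower. The 4 probes summed to 39568 counts in IL-1β vesicles and 1175 in control vesicles, a raw ratio of 33.7 (31.8 to 35.7). The 420 miRNA probes summed to 13514 counts in IL-1β vesicles and 16812 in control vesicles, a raw ratio of 0.804 (0.786 to 0.822). Over the 139 miRNA probes above background in both samples the median raw ratio was 1.06. On raw counts the lower sum was thus not shared by most of these 139. More EVs in the pellet and more mRNA per EV cannot be told apart in such a sum.

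**Figure D1:**
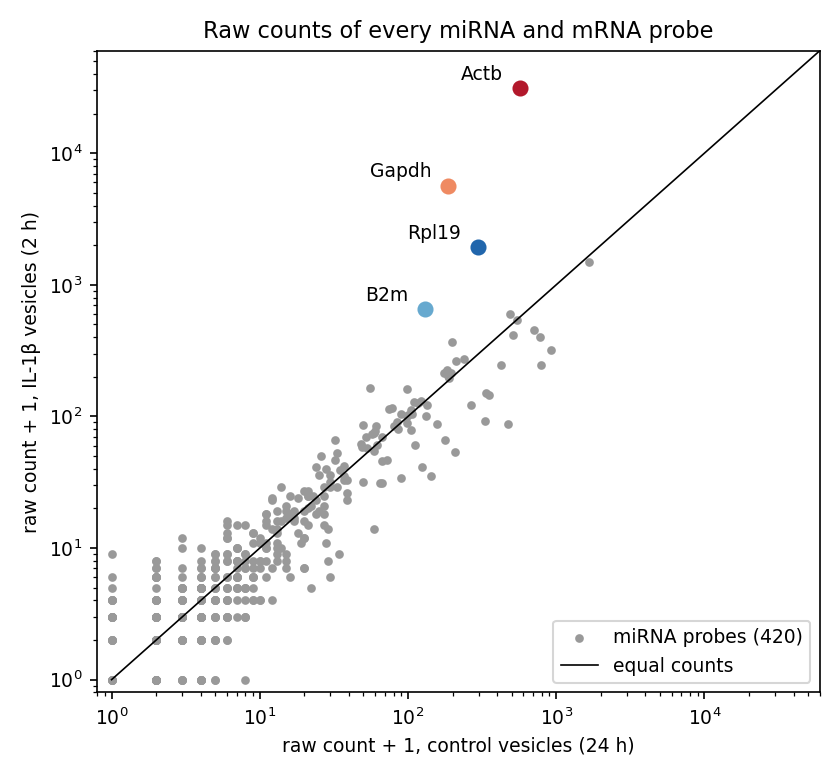
Raw count + 1 of each probe in IL-1β vesicles (vertical, log scale) against control vesicles (horizontal, log scale), with 420 miRNA probes in grey, the 4 mRNA probes in colour and a line of equal counts. The miRNA probes lie along the line, and the 4 mRNA probes lie above it, with Actb, at 31319 counts in IL-1β vesicles and 565 in control vesicles, farthest away.

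Actb encodes β-actin, a subunit of the actin filaments that shape the cell edge and carry its movements. Its probe gave 31319 counts in IL-1β vesicles (30973 to 31668) and 565 in control vesicles (519 to 614). In IL-1β vesicles it alone held 50.7% of all counts of the lane, controls included, against 2.37% in control vesicles. The highest miRNA of both samples was miR-125b-5p, which brain cells hold in quantity, with 1478 counts in IL-1β vesicles and 1660 in control vesicles. Actb stood 21.2-fold above it in IL-1β vesicles and at 0.340 of it in control vesicles, where 5 miRNAs had more counts than Actb.

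Gapdh encodes the glycolytic enzyme glyceraldehyde-3-phosphate dehydrogenase. It gave 5660 counts in IL-1β vesicles (5514 to 5809) and 186 in control vesicles (160 to 215). The IL-1β count was 3.83-fold that of miR-125b-5p and above every miRNA of that sample. In control vesicles 20 miRNAs had more counts, and the nearest were miR-598-5p with 189 and miR-29a with 184.

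Rpl19 encodes a protein of the large ribosomal subunit. Its probe gave 1935 counts in IL-1β vesicles (1850 to 2023) and 295 in control vesicles (262 to 331). It too was above every miRNA in IL-1β vesicles, at 1.31-fold the count of miR-125b-5p. In control vesicles 13 miRNAs were above it, and it lay between miR-100 with 329 counts and miR-99a with 265.

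B2m encodes β2-microglobulin, the light chain of MHC class I molecules, which present peptides to T cells, and its transcription is known to respond to inflammatory signals, through NF-κB and interferon-regulated sites in its promoter. Its probe gave 654 counts in IL-1β vesicles (605 to 706) and 129 in control vesicles (108 to 153). Only miR-125b-5p had more counts in IL-1β vesicles, and the next miRNA below B2m there was miR-466c with 600. In control vesicles 29 miRNAs were above it. The promoter is shown because IL-1β acts through NF-κB. Capitals mark the match, on the reverse strand, to the NF-κB consensus in the 250 bases before the start of B2m, on GRCm38.p6 at chr2:122147437-122147686, plus strand, from RefSeq:
B2m promoter: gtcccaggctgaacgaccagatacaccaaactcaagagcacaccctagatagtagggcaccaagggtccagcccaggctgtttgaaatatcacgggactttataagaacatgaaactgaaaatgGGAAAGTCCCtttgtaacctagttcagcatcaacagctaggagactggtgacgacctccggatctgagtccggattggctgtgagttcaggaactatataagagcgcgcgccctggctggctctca
The match spans 122147561 to 122147570 and is the 1 match of the consensus there, on either strand. Of all 32851 promoter windows of that length in the RefSeq table, 1281 (3.90%) hold the consensus. Promoters of 3 of the 4 genes, all but Actb, were in the table, and the Gapdh window and both Rpl19 windows hold no match. The B2m window ends just before the gene span given above, whereas the Gapdh and Rpl19 windows lie inside theirs. The bases just outside the Gapdh and Rpl19 spans were in none of their windows, so whether they hold the consensus was not tested. The search was chosen after seeing the data. A match of letters shows neither binding nor an effect on the count. Whether the B2m ratio, the lowest of the 4, depends on the match was not tested.

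The members were far from background in both samples. The 8 negative-control probes averaged 3.125 counts in the IL-1β lane (SD 3.27) and 3.25 in the control lane (SD 1.58). The background threshold, the mean + 2 SD of the negative controls, was 9.67 counts in the IL-1β lane and 6.41 in the control lane. The lowest member, B2m, stood 67.7-fold above the threshold in IL-1β vesicles and 20.1-fold above it in control vesicles. Actb stood 3240-fold above it in IL-1β vesicles and 88.1-fold in control vesicles. The 5 spike-in probes summed to 14 counts in the IL-1β lane and 12 in the control lane. Of these osa-miR414, with 10 counts in the IL-1β lane and 4 in the control lane, was just above the threshold in the IL-1β lane.

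Each lane also held 6 synthetic positive-control RNAs at known concentrations, which fix a scale from 0.125 to 128 fM. In the IL-1β lane the Actb count lay above that scale, at 5.18-fold the count of the 128 fM control (6048 counts). In the control lane it was 0.134 of that control (4231 counts). Interpolated on the log scale between neighbouring controls of the same lane, Gapdh came to 117 fM equivalents in IL-1β vesicles and 10.1 in control vesicles. Rpl19 came to 29.1 in IL-1β vesicles and 13.2 in control vesicles, and B2m to 14.8 in IL-1β vesicles and 8.15 in control vesicles. Actb came to 19.3 fM equivalents in control vesicles and has no interpolated value in IL-1β vesicles. These equivalents assume that an mRNA is captured like a control RNA, which was not tested.

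**Figure D2:**
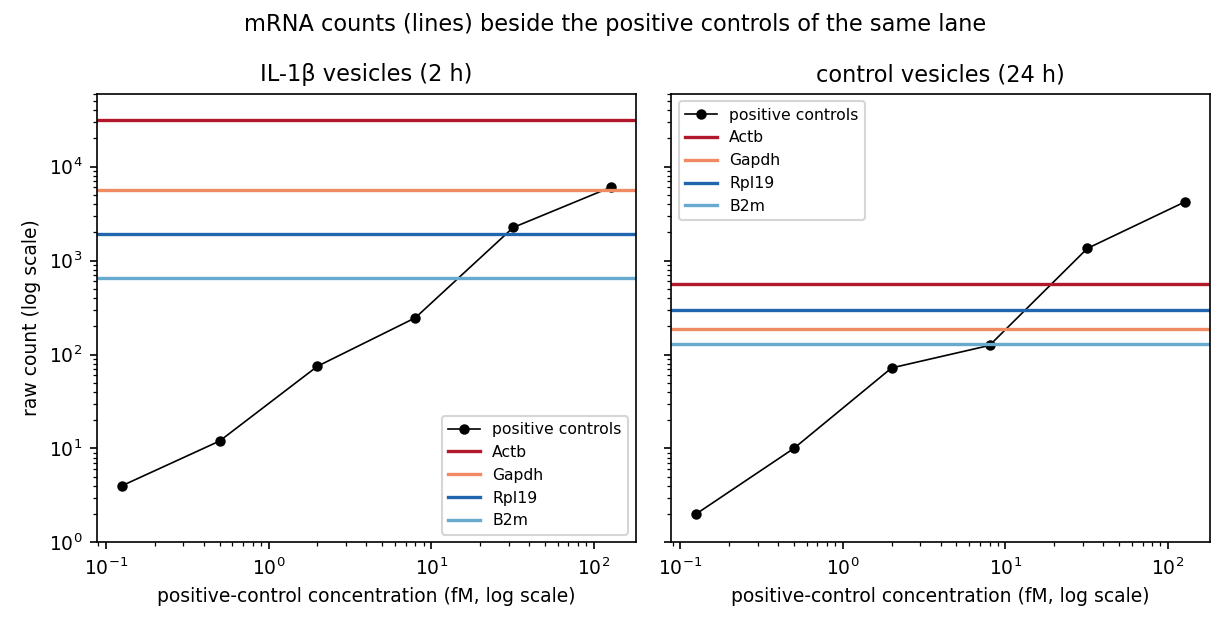
Raw counts (log scale) of the positive controls against their concentration in fM (log scale, black points), with the count of each mRNA as a horizontal line, for IL-1β vesicles (left) and control vesicles (right). In the IL-1β lane the mRNA lines run from 654 to 31319 counts and Actb lies above the top control, and in the control lane they run from 129 to 565 counts, all between the 8 and the 32 fM controls.

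The ratio of IL-1β over control was highest for Actb, followed by Gapdh, Rpl19 and B2m, an order that no common scaling of a sample changes. With no scaling they were 55.4 for Actb (51.0 to 60.3), 30.4 for Gapdh (26.3 to 35.4), 6.56 for Rpl19 (5.80 to 7.44) and 5.07 for B2m (4.19 to 6.17). The main scale was set by the 100 miRNA probes that were highest on average over both samples, and the ratio of their geometric means, IL-1β over control, was 0.875. On it the ratios were 63.3 for Actb (58.3 to 68.9), 34.8 for Gapdh (30.0 to 40.5), 7.49 for Rpl19 (6.63 to 8.50) and 5.79 for B2m (4.79 to 7.05). On the positive controls, whose geometric mean was 1.51-fold higher in the IL-1β lane, they were 36.8 for Actb (33.8 to 40.0), 20.2 for Gapdh (17.4 to 23.5), 4.35 for Rpl19 (3.85 to 4.93) and 3.36 for B2m (2.78 to 4.09). All 3 scales put each mRNA higher in IL-1β vesicles.

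The positive controls, the same synthetic RNAs in both lanes, can show a technical difference between the lanes and none between samples. They do not cover the extraction of the EV RNA or the ligation of tags to miRNAs. The ratios of the positive controls, IL-1β over control, were uneven along the scale. They were 1.43 for 128 fM, 1.67 for 32 fM, 1.97 for 8 fM (1.58 to 2.46) and 1.04 for 2 fM (0.744 to 1.46). The 0.5 fM control gave 1.20 (0.475 to 3.10). The 0.125 fM control gave 2.00, from 4 counts in the IL-1β lane and 2 in the control lane, below background in both. A calibration within each lane gave smaller mRNA ratios. Interpolated fM equivalents gave ratios of 11.6 for Gapdh, 2.21 for Rpl19 and 1.81 for B2m, the last under 2-fold. A log-log line through all 6 controls of a lane gave 26.3 for Actb, 15.3 for Gapdh, 3.80 for Rpl19 and 3.00 for B2m. Both calibrations were chosen after seeing the data.

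**Figure D3:**
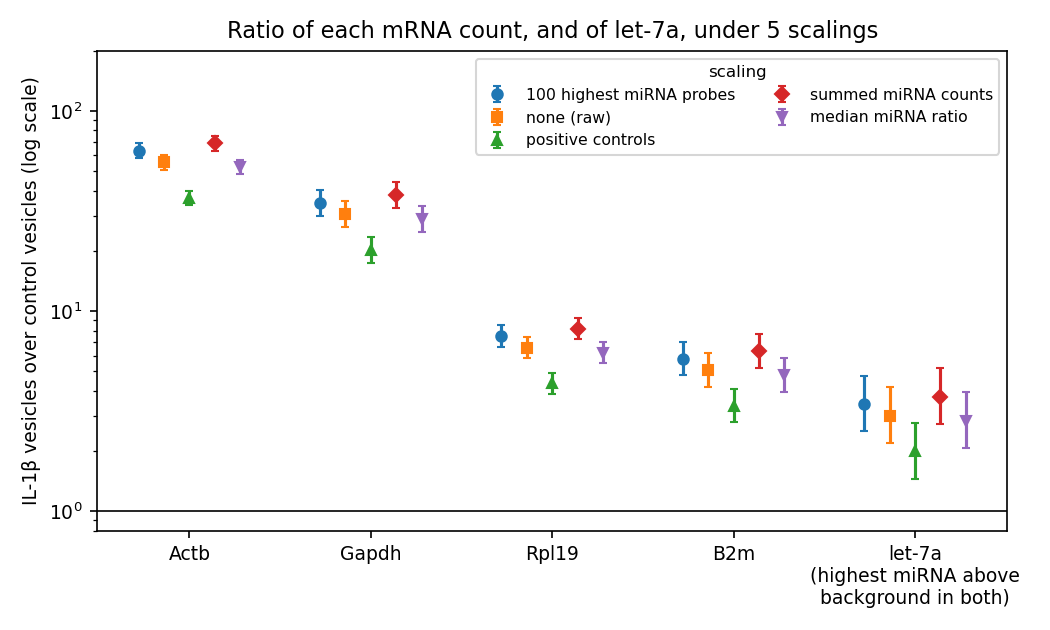
Ratio of IL-1β vesicles over control vesicles (log scale) for each mRNA and for let-7a, the highest ratio among the 139 miRNAs above background in both samples, under 5 scalings, with exact 95% counting intervals. The mRNA points run from 69.0 for Actb with summed miRNA counts to 3.36 for B2m with positive controls, and on each scaling the let-7a point lies below all 4 mRNAs.

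A probe was called higher where its ratio was at least 2-fold, or bounded so against background in the other sample, with an interval above 1. On the main scale all 4 mRNA probes were called higher, against 9 of 160 miRNA probes with a value (5.62%). With no scaling the 4 mRNA probes stood beside 4 of 166 miRNA probes (2.41%), and with positive controls beside 0 of 192 (0%). In the other direction, 0 of the 4 mRNA probes were called lower, while 15 miRNA probes were on the main scale (9.38%), 21 with no scaling (12.7%) and 46 on positive controls (24%). At a 4-fold minimum all 4 mRNA probes were called higher on the main scale, against 0 of 160 miRNA probes. On positive controls B2m was lost, and 0 of 192 miRNA probes were called higher. At that minimum 1 miRNA probe was called lower on the main scale and 14 were on positive controls, with 0 of the mRNA probes on either. The contrast with the miRNAs is given as a description, since the members differ from them in chemistry and length as well.

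Of the 139 miRNA probes above background in both samples, the ratio on the main scale had a median of 1.21 and ran from 0.208 to 3.43. The miRNAs nearest to the mRNAs were let-7a, with 162 counts in IL-1β vesicles and 54 in control vesicles and a ratio of 3.43 (2.50 to 4.75), miR-504 at 2.46 and miR-3577 at 2.40. The interval of let-7a ended just below that of B2m, which began at 4.79. At the other end were miR-1224 at 0.208, miR-132 at 0.256 and miR-204 at 0.272. The lowest mRNA ratio was 1.69-fold the highest ratio of these 139 miRNAs, a figure that no common scaling of the samples changes. The lane ratios of the 4 highest positive controls were themselves up to 1.89-fold apart. A calibration within each lane can change the figure, since interpolation brought Rpl19 to 2.21 and B2m to 1.81. The calibrations were not applied to the miRNAs, so whether the mRNAs stay above let-7a on them was not tested. Outside them, 5 miRNA probes with 1 or 2 counts in control vesicles had a raw ratio above that of B2m, such as miR-493 with 11 counts in IL-1β vesicles and 2 in control vesicles.

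The mix of the 4 mRNAs also differed between the samples, a comparison that needs no scaling. Actb held 79.2% of the mRNA counts in IL-1β vesicles (78.7 to 79.6) and 48.1% in control vesicles (45.2 to 51.0). Gapdh held 14.3% in IL-1β vesicles (14.0 to 14.7) and 15.8% in control vesicles (13.8 to 18.0), with overlapping intervals. Rpl19 held 4.89% in IL-1β vesicles (4.68 to 5.11) and 25.1% in control vesicles (22.6 to 27.7). B2m held 1.65% in IL-1β vesicles (1.53 to 1.78) and 11.0% in control vesicles (9.25 to 12.9). The highest count of the 4 was 47.9-fold the lowest in IL-1β vesicles and 4.38-fold in control vesicles.

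**Figure D4:**
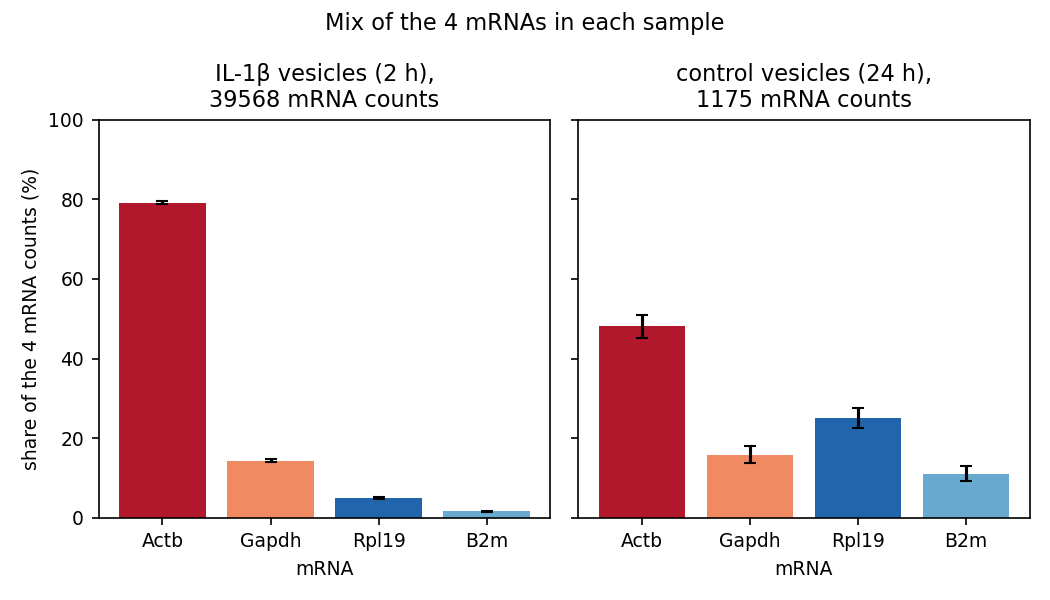
Share of each mRNA probe in the summed counts of the 4 (percent, bars from 0, exact 95% binomial intervals), in IL-1β vesicles (left, 39568 counts) and control vesicles (right, 1175 counts). Actb holds 79.2% of the IL-1β counts and 48.1% of the control counts, and Rpl19 and B2m take smaller shares in IL-1β vesicles than in control vesicles.

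With Actb left out, the other 3 still differed in their mix. Gapdh then held 68.6% in IL-1β vesicles (67.6 to 69.6) and 30.5% in control vesicles (26.9 to 34.3). Rpl19 held 23.5% in IL-1β vesicles (22.5 to 24.4) and 48.4% in control vesicles (44.3 to 52.4), so the order of these 2 genes was turned. B2m held 7.93% in IL-1β vesicles (7.35 to 8.53) and 21.1% in control vesicles (18.0 to 24.6).

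All 6 pairs of members were compared through the ratio of their counts, and in all 6 the interval of the difference between samples excluded 1. The Actb count was 47.9-fold that of B2m in IL-1β vesicles (44.3 to 51.8) and 4.38-fold in control vesicles (3.61 to 5.35), a 10.9-fold difference between the samples (8.82 to 13.5). Actb over Rpl19 was 16.2 in IL-1β vesicles and 1.92 in control vesicles, a difference of 8.45-fold (7.26 to 9.82). Gapdh over B2m was 8.65 in IL-1β vesicles and 1.44 in control vesicles, a difference of 6.002-fold (4.69 to 7.67). Gapdh had 2.93-fold the counts of Rpl19 in IL-1β vesicles (2.78 to 3.08) but 0.631 of them in control vesicles (0.522 to 0.760), a difference of 4.64-fold (3.82 to 5.64).

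The smallest of the 6 differences were between the neighbours Actb and Gapdh, which had the highest raw ratios (55.4 and 30.4), and between Rpl19 and B2m, which had the lowest (6.56 and 5.07). Actb over Gapdh was 5.53 in IL-1β vesicles and 3.04 in control vesicles, a difference of 1.82-fold (1.53 to 2.16). Rpl19 over B2m was 2.96 in IL-1β vesicles and 2.29 in control vesicles, a difference of 1.29-fold (1.02 to 1.63). As for every pair, no spread between samples is known against which these differences could be set. The lane ratios of the 4 highest positive controls ran from 1.04 to 1.97, or 1.89-fold apart with counting error included. Both of these differences were smaller than that, and whether an uneven response of the lanes made them was not tested.

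Beside the miRNAs of the same lane, mRNA counts were the major part in IL-1β vesicles and a minor part in control vesicles. For each miRNA count there were 2.93 mRNA counts in IL-1β vesicles (2.87 to 2.99) and 0.0699 in control vesicles (0.0658 to 0.0742), a 41.9-fold difference (39.4 to 44.6). As a share of mRNA and miRNA counts together, the mRNAs made up 74.5% in IL-1β vesicles (74.2 to 74.9) and 6.53% in control vesicles (6.18 to 6.90). Actb gave 2318 counts for every 1000 miRNA counts in IL-1β vesicles and 33.6 in control vesicles. For Gapdh these were 419 in IL-1β vesicles and 11.1 in control vesicles, for Rpl19 143 in IL-1β vesicles and 17.5 in control vesicles, and for B2m 48.4 in IL-1β vesicles and 7.67 in control vesicles. Without Actb the other 3 gave 0.610 mRNA counts per miRNA count in IL-1β vesicles and 0.0363 in control vesicles, a difference of 16.8-fold (15.4 to 18.4). The summed miRNA counts in the divisor differed far less than the mRNA counts, at the ratio of 0.804 given above. Whether the ligation of tags differed between the lanes was not tested.

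These probes are placed on miRNA code sets to serve as a scale, and their use as one would set the miRNA ratios of these 2 samples. The geometric mean of the 4 mRNA counts was 15.4-fold higher in IL-1β vesicles than in control vesicles. Divided by it, the 139 miRNA probes above background in both samples had a median ratio of IL-1β over control of 0.0687, with a range of 0.0118 to 0.195, and 139 of 139 were at least 2-fold lower. Since the highest raw ratio among these probes was 3, division by 15.4 had to put all of them at least 2-fold lower. Scaled on Actb alone the median was 0.0191, on Gapdh alone 0.0347, on Rpl19 alone 0.161 and on B2m alone 0.209. The choice between Actb and B2m as the scale moved each miRNA ratio by 10.9-fold, which is the pair difference of these genes given above. On B2m alone 138 of the 139 probes were at least 2-fold lower. The authors' deposited table of normalized signals lists 124 miRNA probes and 0 of the 4 mRNA probes. The median ratio of its signals over the 119 probes with both was 0.883 in the authors' deposited table, whose normalization the sources used here do not give.

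The lanes were alike in the area read. Of 1150 fields of view, 1139 were counted in the IL-1β lane and 1121 in the control lane. The IL-1β lane gave 61756 counts in all and the control lane 23813. The code set has no mRNA of a cell type marker, so miRNAs listed for cell types were looked at instead. Such a list cannot settle which cells shed the EVs. All 4 miRNAs listed for astrocytes (miR-125b-5p, miR-181a, miR-100, miR-99a) were above background in both samples, summing to 1934 counts in IL-1β vesicles and 3046 in control vesicles. Of 13 probes for miRNAs of neurons, leukocytes, red cells, hepatocytes, muscle, endothelium and neuroepithelium, 3 were above background in IL-1β vesicles and 5 in control vesicles. They summed to 84 counts in IL-1β vesicles and 102 in control vesicles, while the mRNAs summed to 39568 counts in IL-1β vesicles and 1175 in control vesicles. Above background in both were the muscle miRNAs miR-206, with 28 counts in IL-1β vesicles and 26 in control vesicles, and miR-1, with 11 in IL-1β vesicles and 19 in control vesicles, and the leukocyte miR-142-3p, with 10 in IL-1β vesicles and 12 in control vesicles. In control vesicles alone, the hepatocyte miR-122 (5 counts in IL-1β vesicles and 15 in control vesicles) and the endothelial miR-126 (7 in IL-1β vesicles and 10 in control vesicles) were above it too. The list held no miRNA of mesenchymal cells. Of these, miR-145 gave 397 counts in IL-1β vesicles and 775 in control vesicles, and miR-199a-3p gave 246 and 425. The mesenchymal miR-143 was low, with 3 counts in IL-1β vesicles and 4 in control vesicles. The part of any of these cell types in the mRNA counts was not tested. Whether cell debris or RNA from outside vesicles moved with the mRNA counts was not tested, since no probe of the code set marks either.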

How the data were processed

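RNA of 2 EV samples, 1 per group, was measured with the NanoString nCounter assay on a rat miRNA code set, and groups were taken from the labels. Per the file headers (file version 1.6), each deposited raw file holds reporter counts per probe with no normalization. The table of 124 miRNA probes that the authors deposited holds signals, normalized in a way that the sources used here do not give, and the ratio of these signals. The ratios given here were computed from the raw counts, with no pseudocount and no subtraction of background. The main scaling factor came from the 100 miRNA probes highest on average over both samples, as their geometric mean. Intervals at 95% are exact binomial (Clopper-Pearson) for shares and, through the share of a probe's 2 counts that one sample holds, for ratios, exact Poisson for counts, and conditional exact for differences between pairs. They cover counting error only. Total counts were 61756 in the IL-1β lane and 23813 in the control lane, and the precision of low counts is set by the counts themselves. The threshold for background was the mean + 2 SD of the 8 negative controls.

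Genes named were all 4 members, the top miRNA of either sample, and the 3 largest and 3 smallest miRNA ratios above background in both samples. miRNAs next to a member in count, miR-493 and the spike-in osa-miR414 were named after their values were seen. The marker miRNAs and a promoter search for the NF-κB consensus were added to place the members, and the search was chosen after seeing the data. The members and lists were chosen with earlier results of these data known. Alternatives were other scalings, subtraction of background, Actb left out, other fold minimums and filters, and 2 calibrations on the positive controls. Analyses ran in Python 3.11.15 with numpy 2.4.6, scipy 1.17.1 and matplotlib 3.10.9. Simulated miRNA counts were used to test the scaling factor with no probe changed, and ratio intervals and calls at the true factor. The mix, the pairs and the calibrations were not simulated.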

Additional observations from a re-analysis of the deposited data

How the results depend on the processing

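No paired analysis was possible because each group held 1 sample, and no replicate could be left out. Of 90 alternative values 42 stayed within the counting interval or within 1.5-fold of a count, 48 moved and 0 were reversed. Shares were scored within each sample, so a turn of a difference between samples was not counted. With Actb in, Gapdh held 14.3% in IL-1β vesicles and 15.8% in control vesicles. Without Actb its share was the larger in IL-1β vesicles, at 68.6% against 30.5% in control vesicles. All 6 pair differences stayed within their intervals when the mean of the negative controls was subtracted, as did all 8 shares of the mRNA mix. The means subtracted, 3.125 counts in the IL-1β lane and 3.25 in the control lane, were small beside member counts of 129 or more, so little could move. Pair differences and shares were not recomputed on the calibrations. The intervals hold counting error alone, so a move past one is not a move past the spread between samples, which is unknown.

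In the order Actb, Gapdh, Rpl19, B2m, the ratios of IL-1β over control on the main scale (63.3, 34.8, 7.49 and 5.79) moved to 36.8, 20.2, 4.35 and 3.36 on positive controls and to 37.3, 20.5, 4.41 and 3.41 on the 4 highest of them. A line through the positive controls of each lane gave 26.3, 15.3, 3.80 and 3.00, and interpolation between them gave 11.6 for Gapdh, 2.21 for Rpl19 and 1.81 for B2m. The median miRNA ratio as a scale gave 52.4 for Actb, 28.8 for Gapdh and 6.20 for Rpl19, and fields of view gave 54.6, 29.9 and 6.46 for these 3. With no scaling Actb moved to 55.4 and Rpl19 to 6.56, and on summed miRNA counts Actb moved to 69.0. With Actb left out, shares among the other 3 were 68.6% in IL-1β vesicles and 30.5% in control vesicles for Gapdh, 23.5% and 48.4% for Rpl19, and 7.93% and 21.1% for B2m.

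mRNA counts per miRNA count in IL-1β vesicles moved to 3.18 with the negative-control mean subtracted and to 3.14 over miRNA probes above background. Without Actb they were 0.610 in IL-1β vesicles and 0.0363 in control vesicles, a ratio of 16.8. The median miRNA ratio scaled on the mRNAs moved to 0.105 without Actb, and to 0.0650 over the 372 probes with at least 1 count in both samples, all 372 of them at least 2-fold lower. The 9 miRNA probes called higher became 4 with no scaling, 0 on positive controls, 15 on summed miRNA counts, 2 on the median ratio, 19 at a 1.5-fold minimum and 0 at a 4-fold minimum. The cause of these moves was not tested.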

Other observations

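Binding density, the instrument's measure of reporters on the imaged surface, did not scale with the counts. It was 0.18 in the IL-1β lane and 0.13 in the control lane, a ratio of 1.38, while total counts were 61756 in the IL-1β lane and 23813 in the control lane, a ratio of 2.59. With Actb left out the ratio of total counts was 1.31, and with all 4 mRNAs left out it was 0.980. Counts per field of view were 54.2 in the IL-1β lane and 21.2 in the control lane, and without Actb 26.7 in the IL-1β lane and 20.7 in the control lane. Each lane gives 1 value, and whether the Actb count is linear in its number of molecules so far above the highest positive control was not tested.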
